A study of Mus musculus with 28 samples.

Results

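The circadian clock genes examined here are 10 transcripts of the core molecular clock: Arntl (also named Bmal1), Clock, Npas2, Per1, Per2, Per3, Cry1, Cry2, Nr1d1 and Dbp. They were chosen by symbol, under a rule that names no measured value, but with earlier results of these data known. Each was found once in all 3 RNA-seq tables, which list 56691, 47243 and 57010 genes. RNA came from mouse skin stem cells of the hair follicle, isolated with a flow cytometer from wild-type (WT) mice and mice labelled Alkbh5 cKO at postnatal day 69. Alkbh5 removes the methyl mark m6A from RNA, and cKO stands for a conditional knockout. The bulge, the reservoir of the resting follicle, was measured with the SHERRY2 protocol from 200 ng of RNA. The hair germ, the cell cluster below the bulge, was measured once with SHERRY2 and once with SMART-seq, both from 40 ng. Each of the 3 datasets held 2 WT mice and 2 cKO mice, so 12 libraries were used, and the 16 m6A libraries of the 28 samples were not analysed here. Neither the labels nor the tables name the Cre driver, the deleted exon, the sorting markers, any treatment or the hour at which a mouse was sampled.

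As background, the clock is a feedback loop in transcription. ARNTL pairs with CLOCK or its relative NPAS2 on E-box elements and drives the Per and Cry genes, whose proteins return to repress that pair. A second loop runs through NR1D1, which represses Arntl at ROR elements, and the output factor DBP acts at D-box elements. In most tissues, skin included, Arntl transcripts peak roughly opposite in the day to those of Nr1d1, Dbp and the Per genes, and the clock is known to shape when hair follicle stem cells become active.

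The elements named above are shown here because they are what ties the genes to one another. Promoters, from 250 bases before to 50 bases after the annotated start, were taken from RefSeq on GRCm38.p6, and 9 of the 10 genes matched, with 13 start sites. Per2 had no entry. Capitals mark the matched element, both strands were searched, and no matches overlapped. The E-box CACGTG was found in 7.15% of all 32851 promoters of that length and in those of Per1 (chr11:69098756-69098815, plus strand) and Cry1 (chr10:85185082-85185141, minus strand), 166 and 60 bases before the start. For Per1 this was the first of 2 annotated starts, and the other held no match.
Per1: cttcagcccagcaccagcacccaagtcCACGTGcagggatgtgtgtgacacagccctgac
Cry1: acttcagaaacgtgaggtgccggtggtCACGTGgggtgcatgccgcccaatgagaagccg
The D-box TTATGTAA was found in 0.938% of all promoters. Per3 held it at 2 places, 205 and 158 bases before the start (chr4:151044796-151044890, minus strand), and 7 promoters in all, or 0.0213%, held 2 or more.
Per3: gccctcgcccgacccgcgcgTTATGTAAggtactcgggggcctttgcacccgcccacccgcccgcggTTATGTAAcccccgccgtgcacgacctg
The core of the ROR element, TAGGTNA, was found in 8.29% of all promoters, and 0.557% held 2 or more. The second annotated start of Arntl held it at 2 places, 6 bases before the start (chr7:113207493-113207522, plus strand) and 31 bases into the transcript (chr7:113207529-113207558, plus strand). The first annotated start held 1 match.
Arntl first site: ttggtcggaaagTAGGTTAgtggtgcgaca
Arntl second site: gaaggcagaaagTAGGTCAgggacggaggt
A match is a description of the letters, not a measured binding site. None of the 3 motifs was found in the windows of Clock, Npas2, Cry2, Nr1d1 or Dbp, which says only that these letters are not in these windows.

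Reads in genes ran from 14676168 to 21187283 per library in the bulge, from 488648 to 2317407 in hair germ SHERRY2 and from 9001396 to 14416601 in hair germ SMART-seq. Hair germ SHERRY2 was therefore the shallowest dataset, and its WT mouse 2, at 488648 reads, the shallowest library. Alkbh5 was at 98.9 and 92.1 CPM (read counts scaled to an equal library total) in bulge WT mice against 4.45 and 2.52 in cKO mice, and at 62.8 and 61.4 against 17.7 and 6.90 in hair germ SHERRY2. In hair germ SMART-seq it was at 132 and 95.3 CPM in WT mice against 84.8 and 105 in the libraries labelled cKO, which overlapped, so the counts did not bear out the genotype labels there. Reads on Xist and on Y-linked genes differed within groups: bulge WT mouse 2, hair germ SHERRY2 cKO mouse 1 and mouse 2 of both SMART-seq groups were the libraries with 164 or more Y-linked reads, and the other libraries had 10 or fewer. All 12 markers of stem and basal keratinocytes and all 8 markers of the hair germ had reads in each dataset. So did all 10 immune, 8 fibroblast and 6 melanocyte markers, so having reads does not tell these cell types apart. In hair germ SHERRY2, summed hair germ markers were at 115 and 205 CPM in WT mice and at 472 and 95.4 in cKO mice. They were at 315 to 347 in the bulge and at 458 to 774 in SMART-seq. Both WT mice and cKO mouse 2 lay below the bulge, so the sum alone did not bear out the hair germ label for them. The genes differed: Cdh3 was at 34.1 to 36.8 CPM in those libraries against 164 to 205 in the bulge, and Lef1 at 6.90 to 24.6 against 0.858 to 3.12. By the sum, cKO mouse 1 stood apart. Lhx2, of the stem and basal list, was at 518 CPM in that mouse and at 24.2 to 67.5 in the other 3. Summed markers of differentiated epidermis were at 13486 CPM in hair germ SHERRY2 WT mouse 1 and at 2278 to 4319 in the other 3. Summed immune markers were at 375 and 743 CPM in hair germ SHERRY2 WT mice and at 521 and 237 in cKO mice. They were at 55.2 to 260 CPM in the bulge and at 26.5 to 139 in SMART-seq. Summed fibroblast markers were at 198 and 358 CPM in hair germ SHERRY2 WT mice and at 512 and 205 in cKO mice. The part of these lists in the clock values of hair germ SHERRY2 was not tested.

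Per length, the clock genes kept a similar order of levels in the datasets. Levels are given as FPKM (read fragments per kilobase of exon, scaled to the depth of the library), and the range over the 4 libraries of a dataset follows each mean. In the bulge, Nr1d1 (mean 88.6, range 62.2 to 102), Per1 (mean 50.9, range 31.6 to 76.9) and Dbp (mean 47.8, range 33.8 to 63.3) were the most abundant. Their ranges overlapped, and all 3 stood above Cry2 (mean 15.8, range 12.6 to 19.0), which stood above the other 6. Clock, Per3, Per2, Arntl, Cry1 and Npas2 followed with means from 6.35 down to 1.87, each overlapping the next.

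The same 4 genes led in hair germ SHERRY2, with means of 56.5 for Nr1d1, 36.1 for Per1, 27.1 for Dbp and 12.9 for Cry2. In hair germ SMART-seq, Per1 came first at 49.3, ahead of Nr1d1 at 31.1 and Dbp at 12.8, and each overlapped the next in range, although Per1 did not overlap Dbp. The mean of Dbp rests on WT mouse 1, and its median of 6.02 lay below the 9.61 of Cry2 and the 8.90 of Clock. Npas2 was the lowest in the bulge and in SMART-seq, and Cry1 in hair germ SHERRY2. The spread over a dataset differed between genes: the highest library was 8.47 times the lowest for Per2 in the bulge and 13.8 times for Dbp in SMART-seq, against 1.504 times for Cry2 in the bulge and 1.43 times for Clock in SMART-seq.

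**Figure D1:**
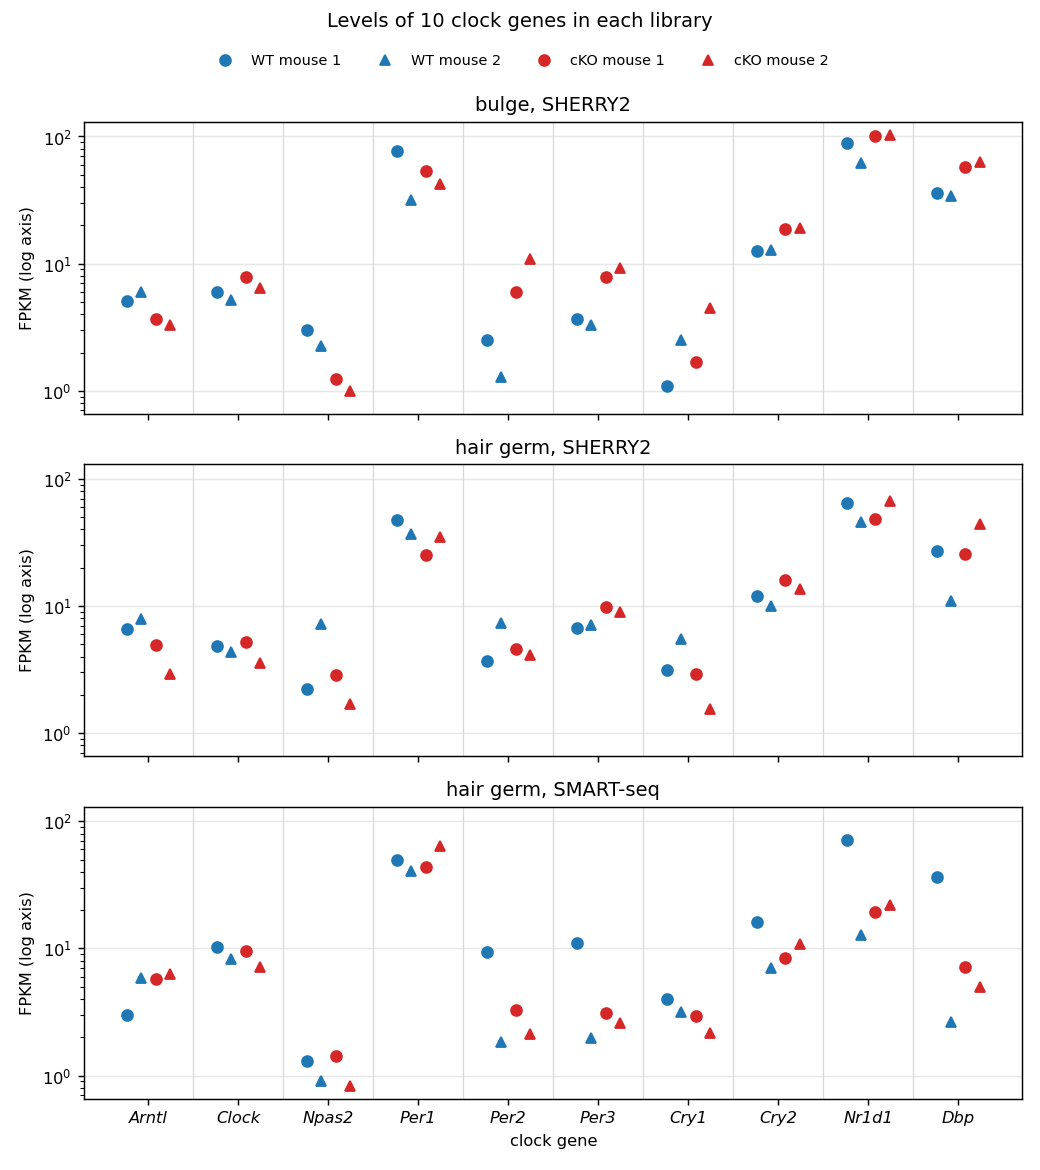
FPKM (log axis) of the 10 clock genes in the 4 libraries of each dataset, with WT mice in blue, cKO mice in red, mouse 1 as circles and mouse 2 as triangles. Per2 and Per3 of both bulge cKO mice lie above both WT mice, and Dbp of SMART-seq WT mouse 1 lies at 36.4 while the other 3 mice lie between 2.63 and 7.10.

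The first comparison asked how the clock genes differed between cKO and WT bulge cells. Per2 and Per3 were higher and Arntl was lower in cKO mice, and the other 7 genes did not pass an adjusted p of 0.05 in the quasi-likelihood test of edgeR with Benjamini-Hochberg adjustment over 15672 genes. Of all genes tested, 3.04% were called in either direction, 1.44% as higher and 1.6% as lower. Among the 10 clock genes 2 were called higher and 1 lower, 7 of the 10 estimates were positive, and their median log2 fold change was 0.32 against -0.01 over all genes tested. As the clock genes were chosen with earlier results of these data known, these counts are no test of the set. RNA from sorted cells in bulk does not tell fewer cells of a type from less RNA per cell.

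Among the activators, Arntl, the partner that CLOCK and NPAS2 share, was at 5.09 and 5.99 FPKM in WT mice and at 3.66 and 3.32 in cKO mice. Both cKO mice lay below both WT mice, and the log2 fold change was -0.84 (SE 0.17), with an adjusted p of 0.0465 in edgeR. Npas2, which can stand in for CLOCK, was at 2.98 and 2.26 FPKM in WT mice and at 1.24 and 1.00 in cKO mice. The groups again did not overlap, and the log2 fold change was larger, at -1.40 (SE 0.31), with an adjusted p of 0.0561 that missed the threshold. Clock itself was at 5.98 and 5.15 FPKM in WT mice and at 7.79 and 6.46 in cKO mice. Its log2 fold change of 0.18 (SE 0.17) was close to its standard error, and the adjusted p in edgeR was 0.627.

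Among the repressors, Per2 showed the largest difference. It was at 2.51 and 1.29 FPKM in WT mice and at 5.97 and 10.9 in cKO mice, so the lower cKO mouse was above the higher WT mouse while the higher mouse of a genotype was 1.95 times (WT) and 1.83 times (cKO) the lower. The log2 fold change was 1.96 (SE 0.38), with an adjusted p of 0.0417 in edgeR. Per3, the paralog whose promoter carries the paired D-box shown above, was at 3.65 and 3.27 FPKM in WT mice and at 7.81 and 9.24 in cKO mice. Its mice agreed more closely within a genotype, and the log2 fold change was 1.13 (SE 0.17), with an adjusted p of 0.0190 in edgeR.

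Per1, the Per gene best known for responding quickly to stimuli, did not follow the other 2. It was at 76.9 and 31.6 FPKM in WT mice and at 53.2 and 42.0 in cKO mice. The cKO mice lay between the WT mice, and the log2 fold change was -0.37 (SE 0.37), with an adjusted p of 0.654 in edgeR. Beside this, the summed level of 22 immediate early genes was 50294 and 31694 CPM in WT mice against 17378 and 4981 in cKO mice, with all 22 lower in both cKO mice, and its part in the Per1 values was not tested. The share of all genes lower in both cKO mice was not computed on this CPM scale. On the scale of the test it was 26.2%.

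The cryptochromes, which join the PER proteins in the repressing complex, were separated less clearly by genotype. Cry2 was at 12.6 and 12.9 FPKM in WT mice and at 18.7 and 19.0 in cKO mice. The mice of a genotype were close together and the groups did not overlap, yet the log2 fold change of 0.39 (SE 0.14) had an adjusted p of 0.180 in edgeR. Cry1 was at 1.09 and 2.53 FPKM in WT mice and at 1.69 and 4.50 in cKO mice, from 77 to 298 reads. Those groups overlapped, and the log2 fold change was 0.63 (SE 0.54), with an adjusted p of 0.592.

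Nr1d1, the nuclear receptor that represses Arntl, was at 88.9 and 62.2 FPKM in WT mice and at 101 and 102 in cKO mice. The log2 fold change of 0.25 (SE 0.20) had an adjusted p of 0.569 in edgeR, and the groups overlapped once scaled as in that test. Dbp, the output factor that binds D-boxes, was at 36.0 and 33.8 FPKM in WT mice and at 58.1 and 63.3 in cKO mice. Its groups did not overlap, and the log2 fold change was 0.62 (SE 0.15), with an adjusted p of 0.0691 that missed the threshold.

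On CPM after TMM scaling, the scale of the test, the 2 genotypes did not overlap for 6 of the 10 clock genes: Per2, Per3, Cry2 and Dbp were higher and Arntl and Npas2 lower in both cKO mice. Over all genes tested, 50.9% did not overlap, 24.7% higher and 26.2% lower, so the count among the clock genes was near the background. With library totals in place of TMM, the median of all genes moved by about 0.16 on the log2 scale, the calls over all genes went from 225 higher and 251 lower to 590 higher and 219 lower, Arntl lost its call (adjusted p 0.0711) and Dbp gained one (adjusted p 0.0234), with no change of sign among the 10.

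The calls leaned on single mice. Without WT mouse 2, the library of this dataset with Y-linked reads (4920 against 1 to 10), none of the 10 clock genes passed: Per2 kept a log2 fold change of 1.55 (adjusted p 0.124), Per3 of 1.01 (adjusted p 0.0718) and Arntl of -0.76 (adjusted p 0.184). Arntl also missed the threshold without WT mouse 1 (adjusted p 0.0649) or cKO mouse 2 (adjusted p 0.0812). Without cKO mouse 1, 6 clock genes passed, with Cry1, Npas2 and Dbp added to the 3. The direction of Per2, Per3, Arntl, Npas2, Dbp, Cry2 and Clock was the same under every one of the 4 omissions, whereas Per1 (0.44 without WT mouse 1), Cry1 (-0.26 without cKO mouse 2) and Nr1d1 (-0.015 without WT mouse 2) turned. Summed immune markers were also lower in cKO mice, at 103 and 55.2 CPM against 260 and 208, with 7 of 10 markers lower in both, and their part in these results was not tested. The share of all genes lower in both was not computed on that CPM scale.

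**Figure D2:**
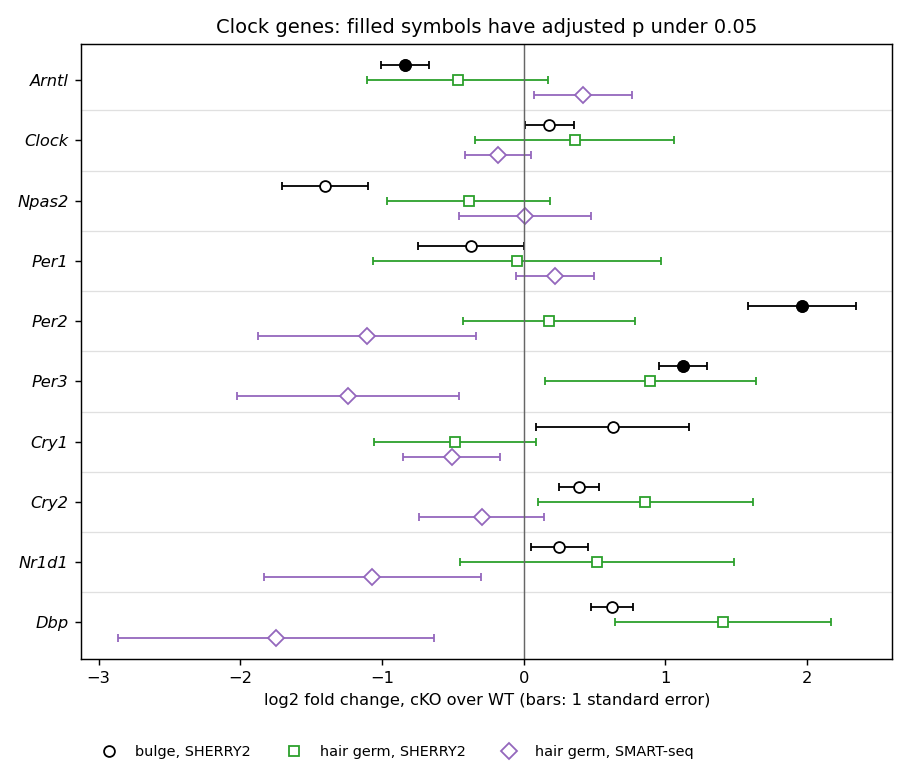
Log2 fold change of cKO over WT for the 10 clock genes, with bars of 1 standard error, in the bulge (black circles), hair germ SHERRY2 (green squares) and hair germ SMART-seq (purple diamonds). Filled symbols, at Arntl, Per2 and Per3 of the bulge, have an adjusted p under 0.05. The bulge bars are shorter than both hair germ bars for all genes but Per1 and Cry1, and the SMART-seq estimates of Per2, Per3, Nr1d1 and Dbp lie below 0.

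Ratios of 2 clock genes within a library do not depend on how libraries are scaled to each other. In the bulge, the log2 ratio of Arntl to Dbp was -2.82 and -2.498 in WT mice and -3.99 and -4.25 in cKO mice. Relative to Dbp, Arntl was thus lower in both cKO mice, by 1.46 on the log2 scale (-2.66 ± 0.23 in WT and -4.12 ± 0.19 in cKO, SD, n = 2). The ratio of Arntl to Nr1d1 was -4.12 and -3.38 in WT mice against -4.79 and -4.94 in cKO mice, also without overlap.

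Within the same libraries, Per2 to Per1 was -4.94 and -4.61 in WT mice against -3.16 and -1.94 in cKO mice. Both Per genes encode repressors of the same complex, and Per2 was higher relative to Per1 in each cKO mouse. Npas2 to Clock was -1.01 and -1.19 in WT mice against -2.65 and -2.69 in cKO mice, the tightest separation of the 4 ratios (SD 0.13 and 0.03, n = 2). These ratios draw on the same gene values as given above, so they are not separate support for them. The share of gene pairs with ratios that do not overlap was not computed. Of single genes, 50.9% did not overlap in the bulge. With 2 mice against 2, no exact permutation test can reach 0.05, and none is given.

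**Figure D3:**
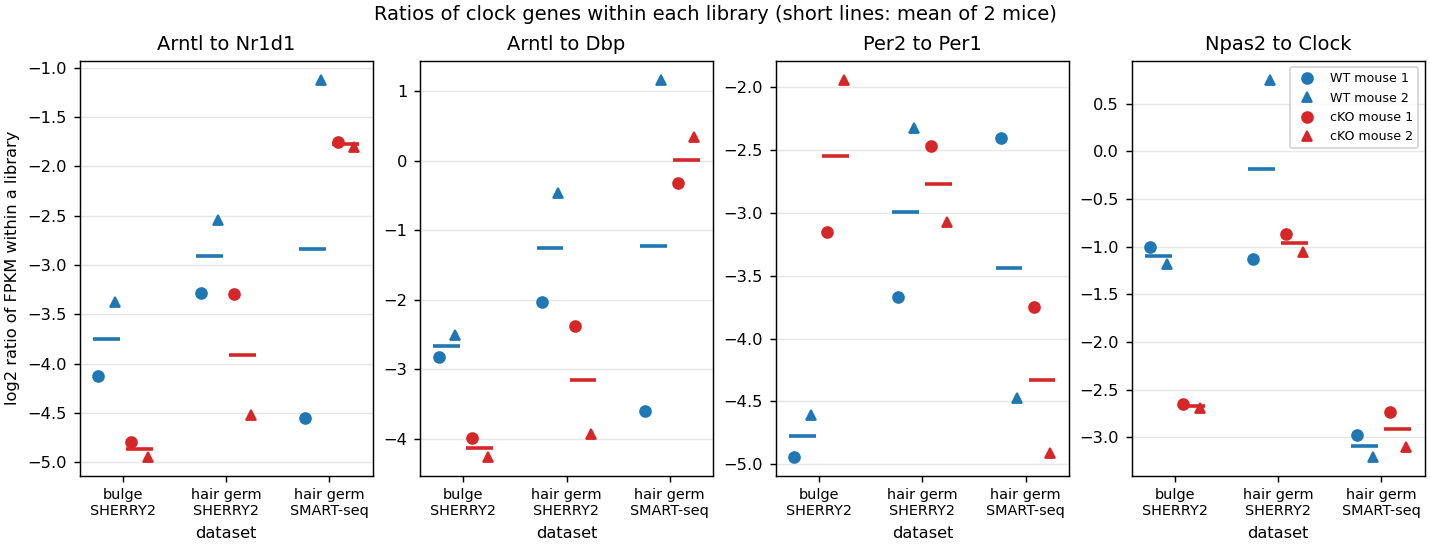
Log2 ratio of FPKM of Arntl to Nr1d1, Arntl to Dbp, Per2 to Per1 and Npas2 to Clock in each library (circles, mouse 1; triangles, mouse 2; WT blue, cKO red; short lines, mean of 2 mice). In the bulge the genotypes are apart in all 4 panels, which draw on the gene values shown above. In hair germ SMART-seq the 2 WT mice span a wider range than the cKO mice for Arntl to Nr1d1 and Arntl to Dbp.

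In hair germ SHERRY2, no clock gene passed an adjusted p of 0.05 in limma on log2(normalized count + 1), where 0.0077% of 38953 genes did, and the adjusted p of the 10 ran from 0.970 to 0.995. The 3 activators were at few reads. Arntl was at 6.59 and 7.89 FPKM in WT mice and at 4.96 and 2.93 in cKO mice, from 29 to 75 reads. Both cKO mice lay below both WT mice, as in the bulge, with a log2 fold change of -0.47 (SE 0.64). Npas2, at 16 to 21 reads, had 2.21 and 7.26 FPKM in WT mice and 2.87 and 1.71 in cKO mice, and Clock had 4.81 and 4.32 against 5.25 and 3.55. Neither separated the genotypes on this scale, with log2 fold changes of -0.39 (SE 0.58) and 0.36 (SE 0.70).

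Among the repressors, Per3 and Cry2 were the pair with higher values in each cKO mouse. Per3 was at 6.67 and 7.03 FPKM in WT mice and at 9.82 and 9.03 in cKO mice, and Cry2 at 12.03 and 10.04 against 16.1 and 13.5. Their groups did not overlap, but with log2 fold changes of 0.89 (SE 0.75) and 0.86 (SE 0.76) the errors were nearly as large as the estimates. Per2, the gene with the largest difference in the bulge, was at 3.72 and 7.34 FPKM in WT mice and at 4.59 and 4.13 in cKO mice. On this scale the cKO mice lay between the WT mice and their mean was lower. On the deposited normalized counts, at 32.3 and 33.2 in WT mice against 30.1 and 45.7 in cKO mice, the cKO mean was higher, and the log2 fold change in limma was 0.18 (SE 0.61).

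Per1 was at 47.4 and 36.7 FPKM in WT mice and at 25.4 and 34.7 in cKO mice, and its log2 fold change in limma was -0.05 (SE 1.02). Both cKO mice lay below both WT mice on the FPKM scale, and the groups overlapped on the deposited normalized counts. Cry1 rested on 9 to 16 reads, at 3.17 and 5.51 FPKM in WT mice against 2.94 and 1.55 in cKO mice, with a log2 fold change of -0.48 (SE 0.57). Immediate early genes summed to 40843 and 29768 CPM in WT mice and to 19831 and 24804 in cKO mice, with 14 of 22 lower in both cKO mice and 1 higher, and their part in the Per1 values was not tested. The share of all genes lower in both cKO mice was not computed on this CPM scale. On the deposited normalized counts it was 16.4%.

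Nr1d1 was at 64.2 and 45.9 FPKM in WT mice and at 48.8 and 67.2 in cKO mice, and overlapped between genotypes. Dbp was at 26.9 and 10.9 FPKM in WT mice and at 25.8 and 44.6 in cKO mice. Its estimate was 1.40 (SE 0.76), and its groups overlapped. The estimate ran from 0.31 without WT mouse 2, the shallowest library, to 2.50 without WT mouse 1. Within libraries, the log2 ratio of Arntl to Dbp was -2.03 and -0.47 in WT mice against -2.38 and -3.93 in cKO mice, and that of Arntl to Nr1d1 was -3.28 and -2.54 against -3.30 and -4.52. Both ratios were lower in each cKO mouse, the latter by 0.01 between the nearest mice, while Per2 to Per1 and Npas2 to Clock overlapped.

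On the deposited normalized counts, 5 of the 10 clock genes did not overlap between genotypes: Per3 and Cry2 were higher and Arntl, Npas2 and Cry1 lower in cKO mice. Of all 38953 genes, 32.8% did not overlap, 16.4% in each direction. The scaling matters in this dataset, because the deposited size factors departed from the library totals by -0.60 to 0.69 on the log2 scale. With log2(CPM + 1) by library totals, the median over all genes moved from 0.06 to -0.33, and Per2 (-0.26) and Clock (-0.08) turned negative. In edgeR on the recovered reads, a count test that calls 0.377% of 16707 genes, no clock gene passed and Per2 was at -0.11.

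In hair germ SMART-seq, no gene of 17547 (0%) passed an adjusted p of 0.05 in edgeR, against 179 at an unadjusted p under 0.05 and 0 with DESeq2, and WT mouse 1 stood apart in most clock genes. Dbp was at 36.4 FPKM in WT mouse 1, at 2.63 in WT mouse 2 and at 7.10 and 4.94 in the libraries labelled cKO. Nr1d1 was at 70.6 and 12.8 in the WT mice and at 19.2 and 21.8 in those labelled cKO. For both, WT mouse 1 was the highest and WT mouse 2 the lowest of the 4.

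The same held for the Per genes other than Per1 and for Cry2. Per3 was at 11.1 and 1.96 FPKM in WT mice against 3.10 and 2.59 in the libraries labelled cKO, and Per2 at 9.36 and 1.83 against 3.25 and 2.11. Cry2 was at 16.1 and 6.97 against 8.44 and 10.8. All 3 had their highest and lowest value within WT. Per1, at 49.7 and 40.8 against 43.7 and 63.3 FPKM, did not share this pattern.

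Arntl was lowest in WT mouse 1, at 3.01 FPKM, against 5.88 in WT mouse 2 and 5.70 and 6.25 in the libraries labelled cKO. Clock, at 10.2 and 8.31 against 9.48 and 7.15, and Npas2, at 1.30 and 0.903 against 1.43 and 0.835, overlapped between genotypes, the highest mouse being 1.43 and 1.71 times the lowest. Cry1, at 4.03 and 3.13 FPKM in WT mice against 2.96 and 2.16, was lower in both libraries labelled cKO, 1 of 10 clock genes without overlap where 24.3% of all genes had none. The median ratio of the higher to the lower mouse over the 10 clock genes was 2.13 within SMART-seq WT, against 1.35 within the SMART-seq libraries labelled cKO, 1.25 within bulge WT and 1.35 within hair germ SHERRY2 WT.

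The fold changes of this dataset leaned on that mouse. Dbp had a log2 fold change of -1.75 (SE 1.12), Per3 of -1.24 (SE 0.78), Per2 of -1.11 (SE 0.77) and Nr1d1 of -1.07 (SE 0.77), all with an adjusted p of 1.00 in edgeR. Without WT mouse 1 they were 1.20, 0.54, 0.56 and 0.69, and Cry2 went from -0.30 to 0.47. Arntl went from 0.42 (SE 0.34) to 0.03 without that mouse. Summed immediate early genes were at 15165 CPM in WT mouse 1 and at 7319 to 9290 in the other 3 mice, and their part in the pattern was not tested. Of the 12 markers of stem and basal keratinocytes, 4 were highest in WT mouse 1 and lowest in WT mouse 2, as Dbp was: Postn (4361 and 801 CPM, against 2196 and 2456 in the libraries labelled cKO), Cd34 (446 and 96.3, against 169 and 258), Nfatc1 (417 and 153, against 231 and 250) and Itga6 (482 and 235, against 374 and 245). The sum of the 12 was 22477 and 19998 CPM against 16750 and 24852. Krt14, of the same list, ran the other way, lowest in WT mouse 1 (3023 CPM) and highest in WT mouse 2 (5882 CPM). Of the 8 hair germ markers, 0 were highest in WT mouse 1 and lowest in WT mouse 2. The share of all genes with this pattern was not computed. The part of these markers was not tested. Both mice numbered 2 had Y-linked reads and both numbered 1 had none, and the part of that difference was not tested.

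**Figure D4:**
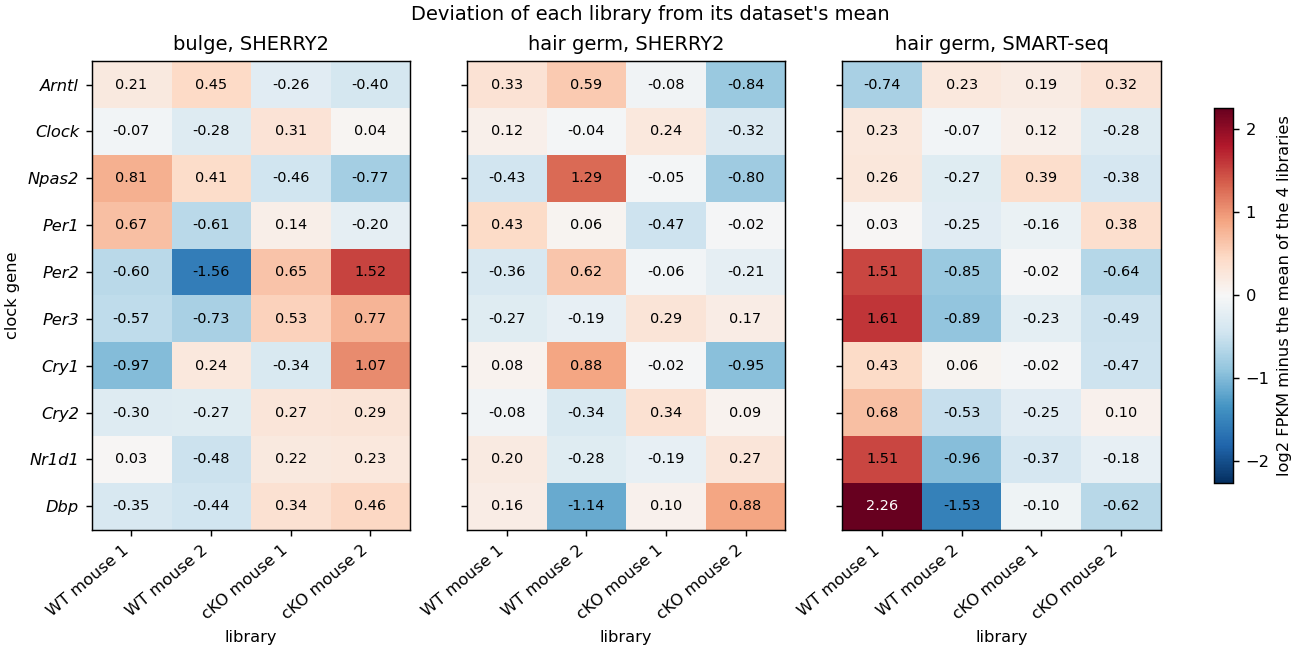
Log2 FPKM of each clock gene in each library minus the mean of the 4 libraries of its dataset, in red above and blue below 0. In the bulge the 2 cKO columns share their sign for all genes but Per1 and Cry1. In hair germ SMART-seq the column of WT mouse 1 holds the highest value of Dbp (2.26), Per3 (1.61), Nr1d1 (1.51) and Per2 (1.51). It also holds the lowest value of Arntl (-0.74).

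Whether the genotype effect differed between bulge and hair germ was tested by fitting both datasets together in edgeR, with an interaction of dataset and genotype. Each joint fit took 1 spread per gene, so its errors draw on both datasets. Hair germ SHERRY2 entered as recovered reads with TMM scaling, not as the limma values given above. Against hair germ SHERRY2, where 0.123% of 25230 genes passed, no clock gene did. Per2 came nearest: its log2 effect was lower in the hair germ by 2.17 (SE 0.56), with an unadjusted p of 0.000597 and an adjusted p of 0.191. That adjusted p passed 0.05 in 3 of 8 fits that each left out 1 library, those without bulge WT mouse 1, bulge cKO mouse 1 or hair germ WT mouse 1. For Arntl the difference was -0.03 (SE 0.44), for Cry2 0.01 (SE 0.45) and for Dbp 0.20 (SE 0.56). These standard errors leave room for differences of either sign. In edgeR on hair germ SHERRY2 alone, the genotype effects of these genes had larger errors (SE 0.51, 0.58 and 0.59). The median difference over all genes tested was -0.20. RNA input and depth differ as well as the cell type here, and they cannot be told apart.

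Against hair germ SMART-seq, 0.0413% of 19371 genes passed and again no clock gene. Arntl differed by 1.25 (SE 0.41, adjusted p 0.674), Per2 by -3.08 (SE 1.01, adjusted p 0.678), Per3 by -2.37 (SE 0.90, adjusted p 0.723) and Npas2 by 1.41 (SE 0.57, adjusted p 0.735). Each is the hair germ effect minus the bulge effect in edgeR. The protocol and the RNA input (200 ng in the bulge, 40 ng here) differ as well as the cell type, and they cannot be told apart. Alkbh5 counts did not bear out the genotype labels of SMART-seq, so these differences may not be ones of genotype effect. Without SMART-seq WT mouse 2, Per3 and Dbp passed, and without WT mouse 1 the difference of Dbp turned from -2.37 to 0.56, that of Per3 went to -0.60 and that of Per2 to -1.43.

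Across the 12 libraries, with log2(CPM + 1) centred within each dataset, several clock genes varied together. Dbp and Nr1d1 had a Pearson correlation of 0.92, Cry2 and Per3 of 0.90, Per2 and Per3 of 0.88, and Dbp and Per3 of 0.87. Arntl ran opposite to Dbp (-0.83), Per3 (-0.78), Cry2 (-0.74) and Nr1d1 (-0.70). Per1 had values near 0 with Per2 (0.06), Per3 (-0.06) and Dbp (0.04). These are descriptions over 12 points from 3 datasets that differ in protocol or tissue, with no test.

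The strongest of these values drew partly on SMART-seq WT mouse 1. Over the other 11 libraries, Dbp and Nr1d1 were at 0.77, Dbp and Per3 at 0.66, and Dbp and Per2 at 0.28 in place of 0.60. Arntl was at -0.79 with Dbp and at -0.54 with Nr1d1, in place of -0.83 and -0.70. The 2 libraries farthest from the median of Arntl were hair germ SHERRY2 cKO mouse 2 and SMART-seq WT mouse 1. Without these 2, Arntl was at -0.69 with Dbp and at -0.46 with Nr1d1. Arntl with Per3 or Cry2 was not checked in this way. Among 9817 genes with a mean of at least 5 CPM in every dataset, those most like Dbp were Tef (0.96), a close relative of Dbp that binds the same element, Marveld1 (0.95) and Nr1d1 (0.92). Without the 2 libraries farthest from the median of Dbp, both SMART-seq WT mice, these were 0.93, 0.86 and 0.70. Those most like Arntl were Arrdc3 (0.95), Tcim (0.94) and Rfxank (0.93), and those most like Per1 were Tent5b (0.85), Stk40 (0.84) and Mnt (0.79). Without the 2 libraries farthest from the median of Arntl, its 3 values were 0.95, 0.86 and 0.76. For Per1 the 2 farthest were both bulge WT mice. Without them its 3 values were 0.79, 0.92 and 0.88, so their order changed.

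A wider list of 22 clock pathway genes held the ROR and NR1D2 receptors, PAR-bZIP factors, further repressors, kinases and ubiquitin ligases that act on PER and CRY. In the bulge, 21 of them were tested, as Rorb had no reads, and 1 was called higher and 2 lower, against 1.44% and 1.6% of all genes. Their median log2 fold change was 0.01. This list too was chosen with earlier results of these data known. Arntl2, the paralog of Arntl, was at 6.37 and 6.47 FPKM in WT mice and at 17.6 and 21.8 in cKO mice. It was higher in both cKO mice while Arntl was lower, with a log2 fold change of 1.44 (SE 0.17) and an adjusted p of 0.00721 in edgeR.

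Both genes called lower encode repressors. Bhlhe40, which competes for E-boxes, was at 119 and 80.3 FPKM in WT mice and at 26.6 and 13.3 in cKO mice, a log2 fold change of -2.49 (SE 0.35, adjusted p 0.0149 in edgeR). Nfil3, which competes with DBP for D-boxes, was at 13.7 and 11.8 FPKM in WT mice and at 3.10 and 1.17 in cKO mice, a log2 fold change of -2.77 (SE 0.42, adjusted p 0.0190). For both, the 2 cKO mice lay far below the WT mice, and these 2 calls and that of Arntl2 held in each of the 4 fits without 1 mouse. The summed immediate early genes were lower in the same libraries, as given above, and their part was not tested.

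Timeless (1.34, SE 0.29, adjusted p 0.0545) and the PAR-bZIP factor Hlf (-0.63, SE 0.16, adjusted p 0.0849) came next in the bulge without passing. The relatives of Dbp did not share 1 sign: Tef was at 0.50 and Hlf at -0.63, both with groups that did not overlap. Nr1d2, the paralog of Nr1d1, was at 0.01 (SE 0.15).

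None of the 22 passed in either hair germ dataset with all 4 mice. In hair germ SHERRY2 the lowest p belonged to Bhlhe41 (log2 fold change 1.98, SE 0.58, adjusted p 0.628 in limma, and 2.47 with 0.0262 without WT mouse 2), Timeless (1.00), Nfil3 (-0.87), Fbxl21 (-0.77) and Csnk1d (0.83). In SMART-seq, genes of low p were Bhlhe41 (-0.67, SE 0.34), Ciart (-1.03), Arntl2 (-0.69) and Hlf (-1.30). Arntl2, Bhlhe40 and Nfil3, called in the bulge, were at 0.59 (SE 0.70), -0.60 (SE 1.00) and -0.87 (SE 0.60) in limma on hair germ SHERRY2. Against the bulge, their differences of -1.24, 1.51 and 1.50 had adjusted p of 0.482, 0.531 and 0.620 in the joint edgeR fit. That fit scales the libraries in another way, so these differences are not the limma values minus the bulge values. In SMART-seq the same 3 genes were at -0.69 (SE 0.64), -0.53 (SE 0.79) and 0.26 (SE 0.38), with the sign opposite to the bulge for Arntl2 and Nfil3. Their differences from the bulge were -2.14, 1.97 and 3.02, and that of Nfil3 had the lowest p of the list, 0.00169 unadjusted and 0.452 adjusted in edgeR.

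**Figure D5:**
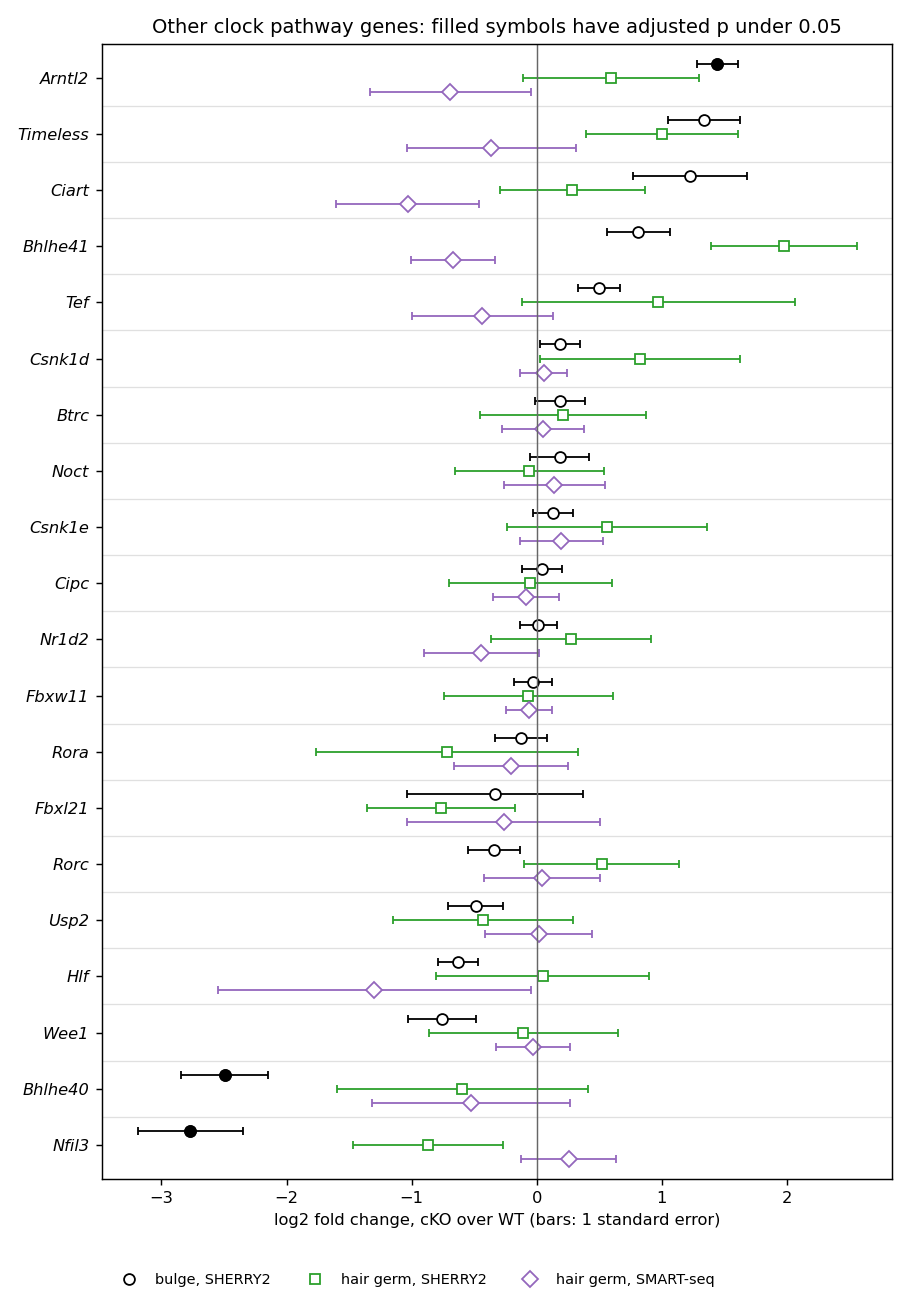
Log2 fold change of cKO over WT, with bars of 1 standard error, for 20 other clock pathway genes tested in the bulge, ordered by their bulge value (black circles), beside hair germ SHERRY2 (green squares) and hair germ SMART-seq (purple diamonds). Filled symbols mark Arntl2 at 1.44, Bhlhe40 at -2.49 and Nfil3 at -2.77 in the bulge.

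Some clock genes share sequence with neighbours in the bulge table, and whether reads were counted by strand is not given in the sources used here. Nr1d1 overlaps Thra by 1075 bases and Dbp overlaps Sphk2 by 737 bases on the opposite strand, and Per3 lies within Camta1 on the same strand, so reads of these pairs may be split or shared. The bulge table places Per1 on chromosome 11 from 68986043 to 69000786, Per2 on chromosome 1 from 91343704 to 91387046, Per3 on chromosome 4 from 151088109 to 151129122 and Arntl on chromosome 7 from 112806672 to 112913333. It names no build, and these coordinates are not those of GRCm38.p6 above.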

How the data were processed

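Deposited tables were analysed as given, and the clock genes and lists were chosen with earlier results of these data known. For the bulge the authors deposited read counts and FPKM per gene, and for SMART-seq read counts. For hair germ SHERRY2 they deposited a normalized signal (count divided by a size factor) with a log2 fold change, its standard error, and p-values. Whole reads were recovered from it for 100% of values within 0.01 reads, and its FPKM and that of SMART-seq used the exonic sizes of the bulge table. The submitters' processing notes list STAR, featureCounts and DESeq2 and the builds GRCm38 and mm10, and for SMART-seq HISAT2 and GRCm39 as well, with no versions. Counts were tested in edgeR 4.0.16 (TMM, filterByExpr), signals in limma 3.58.1 on log2(value + 1) for means of at least 1, in R 4.3.3, two-sided, with Benjamini-Hochberg adjustment at 0.05. The standard error in edgeR is the fold change divided by the root of its F statistic. DESeq2 1.42.0, other scalings and filters, a replicate block and omissions of 1 library were alternatives. Scripts were tested on simulated data. All 10 clock genes are named throughout; of the 22 others, those past 0.05 and, where fewer than 5 passed, those of lowest p up to 5 (1 such gene is not reported here); and the 3 genes most like Per1, Dbp and Arntl. Genes outside this rule were named after their values were seen. Nothing says how the mice were housed or processed together, so p-values measure only the spread between these samples.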

Additional observations from a re-analysis of the deposited data

Results flagged for a closer look

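Bhlhe41, a repressor that binds E-boxes, was higher in both cKO mice of hair germ SHERRY2 on deposited normalized counts (log2 fold change 1.98, from 6 to 62 reads) and lower in both libraries labelled cKO of hair germ SMART-seq (-0.67). The difference between the 2 datasets was not tested, and the SHERRY2 groups overlapped on the FPKM scale. In limma, the adjusted p of the SHERRY2 value was 0.628 with all 4 mice and 0.0262 without WT mouse 2, the shallowest library.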

How the results depend on the processing

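With 2 mice a group, the bulge calls rest on few degrees of freedom, and depth limits the hair germ SHERRY2 values most, where Cry1 and Npas2 had at most 21 reads. In the bulge, 476 genes passed in edgeR with TMM, 809 with library totals, 1191 with DESeq2 and 1549 with no filter on low counts, where DESeq2 and the unfiltered fit each called 5 clock genes in place of 3 (Npas2 and Dbp added). Leaving out 1 mouse gave 218 to 1601 genes and 0 to 6 clock genes. The log2 fold change then ranged from -0.90 to 0.44 for Per1, from -0.26 to 1.30 for Cry1 and from -0.015 to 0.56 for Nr1d1. The cause was not tested.

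Mouse numbers were not taken as pairs. The difference of mouse 1 and mouse 2 within WT was set against that within cKO over genes. The correlation was 0.01 in the bulge, -0.21 in hair germ SHERRY2 and 0.23 in SMART-seq. With a replicate block, 506 bulge genes and 1 clock gene passed (Per3, adjusted p 0.0275; Per2 and Arntl were at 0.0614 and 0.0607 in edgeR), and 5 genes passed in hair germ SHERRY2. SMART-seq Npas2 was at -0.0090. A crossed pairing in hair germ SHERRY2, chosen after seeing the data, called 468 genes, 1 clock gene (Dbp, adjusted p 0.0485) and Bhlhe41 (adjusted p 0.00837).

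Hair germ SHERRY2 had 3 calls in limma, 0 with a pseudocount of 0.1, 19 with 5, 0 with no filter on low values, 0 with DESeq2 and 63 with edgeR on recovered reads (1 to 113 without 1 mouse), where Per2 was at -0.11. Library totals, chosen after seeing the data, gave 16 calls, Per2 at -0.26 and Clock at -0.077. Leaving out 1 mouse gave 0 to 105 calls, with ranges of -0.70 to 0.60 for Per1, -0.12 to 0.47 for Per2, -0.18 to 0.90 for Clock, -0.19 to 1.22 for Nr1d1, 0.31 to 2.50 for Dbp and 1.48 to 2.47 for Bhlhe41, which passed without WT mouse 2 (adjusted p 0.0262 in limma).

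In SMART-seq, no filter gave 30 calls and 2 clock genes, Per3 and Dbp. Leaving out 1 mouse gave ranges of -1.85 to 0.56 for Per2, -2.01 to 0.54 for Per3, -0.79 to 0.47 for Cry2, -0.37 to 0.0080 for Clock, -1.83 to 0.69 for Nr1d1, -2.64 to 1.20 for Dbp, -0.40 to 0.34 for Npas2, -0.093 to 0.49 for Per1, -1.30 to 0.42 for Arntl2 and -2.22 to 2.05 for Hlf. The difference of effects between hair germ SHERRY2 and bulge, with 31 calls, had 27 to 525 without 1 library and 0 to 1 clock genes, with ranges of -0.29 to 0.21 for Arntl, -0.21 to 0.36 for Cry2 and -0.42 to 1.31 for Dbp, and Cry2 at -0.020 with RLE scaling. That for SMART-seq, with 8 calls, had 0 to 18 and 0 to 2 clock genes, with ranges of -3.28 to 0.56 for Dbp, -3.15 to -0.60 for Per3 and -3.83 to -1.43 for Per2. CPM in place of FPKM is no check of the ratios, since gene length cancels in their differences between mice.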
